A study of Mus musculus with 38 samples.

Results

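Spleen cells taken 5 days after cyclophosphamide were set against spleen cells taken 1 day after it. The samples were chosen by their titles: 10 arrays of 5 mice at day 5 and 8 arrays of 4 mice at day 1, together 18 of the 38 arrays and 9 of the 19 mice in the series. All 9 mice were DBA/2, an inbred laboratory strain, and all had received 1 intraperitoneal dose of 83 mg/kg cyclophosphamide, an alkylating drug that cross-links DNA and kills dividing cells. Since both groups were treated, the comparison follows the spleen between the first and the fifth day after the drug, and holds no untreated mouse. The series also holds 5 mice at day 2 and 5 untreated mice, which entered the model only for the spread between animals and are named below only for orientation. The labels at hand name no sex, age or array batch, so none was tested.

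Each array measured RNA of 1 mouse (red dye, Cy5) beside a pool of bone marrow cells (green dye, Cy3), and its value is the log2 ratio of spleen over marrow. A value below 0 therefore means less signal in spleen than in the marrow pool, and a difference of 1 between days is a doubling. The pool is common to all arrays and cancels in the difference between days. The labels call its cells untreated, while their treatment field names cyclophosphamide. The 2 technical arrays of a mouse were averaged, and 3 or more mice of both groups had to have a value, which 8811 of 13443 probes (65.5%) met. The lists of T cell and mature B cell markers averaged above 0 in each of the 9 mice, and those of neutrophil and early granule genes, which are rich in marrow, below 0 in each. Mice at day 5 had a narrower spread of log2 ratios over all probes (SD 0.382 to 0.524) than mice at day 1 (0.508 to 0.586). Counts with the arrays brought to equal spread are given below.

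The mouse spleen is a lymphoid organ that also makes blood cells throughout life. Its red pulp holds dividing red cell precursors, and after loss of marrow cells it can take up a larger share of blood formation. Cells copy their DNA in S phase, for which they need deoxynucleotides, histones and replication proteins. In mitosis the kinase Cdk1, kinetochores, the spindle and the anaphase-promoting complex with its activator Cdc20 then part the chromosomes. Genes of late cell cycle stages often have CCAAT letters, read by the factor NF-Y, and TTTGAA letters, known as the cell cycle homology region, near their start. Many red cell genes carry AGATAA, a form of the motif read by GATA factors.

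The starts of 4 genes that rose at day 5 are shown for these letters, 2 from the mitosis list and 2 from the red cell precursor list. They are examples, and each window shown holds TTTGAA or AGATAA. Cdc20 and Rhd had the smallest p of their lists, and Cdk1 and Kel did not. Of the called genes of these lists not shown, Ermap held no AGATAA, and Cks2, Cenpk, Sgo1 and Nuf2 held no TTTGAA in their windows. Nuf2 held none of these letters. Each window runs from 250 bases before to 50 bases after the gene's start, 5′ to 3′ on the gene's strand, from RefSeq on mouse build GRCm38.p6. Capitals mark the 3 motifs on either strand: CCAAT, whose reverse complement reads ATTGG, then the homology region letters TTTGAA, which in reverse read TTCAAA, and the GATA letters AGATAA, which in reverse read TTATCT. No 2 capital runs overlap in these windows. The windows are chr4:118437294-118437593 (minus strand) for Cdc20, chr10:69352863-69353162 (minus strand) for Cdk1, chr4:134864286-134864585 (plus strand) for Rhd and chr6:41704276-41704575 (minus strand) for Kel.
Cdc20: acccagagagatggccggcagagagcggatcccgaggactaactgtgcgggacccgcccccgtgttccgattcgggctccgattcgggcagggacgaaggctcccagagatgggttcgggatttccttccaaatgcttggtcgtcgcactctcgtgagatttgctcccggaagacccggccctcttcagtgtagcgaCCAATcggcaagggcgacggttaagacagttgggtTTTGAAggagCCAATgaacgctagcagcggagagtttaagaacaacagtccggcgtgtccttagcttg
Cdk1: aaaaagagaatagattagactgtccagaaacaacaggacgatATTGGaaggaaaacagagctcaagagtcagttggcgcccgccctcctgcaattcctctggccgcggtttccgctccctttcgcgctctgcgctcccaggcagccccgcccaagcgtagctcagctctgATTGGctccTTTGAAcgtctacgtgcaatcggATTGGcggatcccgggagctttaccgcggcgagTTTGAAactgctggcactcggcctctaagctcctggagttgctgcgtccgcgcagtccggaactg
Rhd: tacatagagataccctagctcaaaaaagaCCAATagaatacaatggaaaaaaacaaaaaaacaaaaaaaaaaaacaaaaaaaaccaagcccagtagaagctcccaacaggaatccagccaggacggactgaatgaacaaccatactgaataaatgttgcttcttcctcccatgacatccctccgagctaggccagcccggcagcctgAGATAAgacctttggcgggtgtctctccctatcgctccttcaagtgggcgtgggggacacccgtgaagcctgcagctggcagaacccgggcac
Kel: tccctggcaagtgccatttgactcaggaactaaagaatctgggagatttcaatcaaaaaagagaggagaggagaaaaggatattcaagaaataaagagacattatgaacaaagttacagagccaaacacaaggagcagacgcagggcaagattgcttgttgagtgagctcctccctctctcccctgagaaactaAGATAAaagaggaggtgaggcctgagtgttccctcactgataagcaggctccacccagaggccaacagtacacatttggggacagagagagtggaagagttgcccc

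CCAAT stood in a window of 6 of the 7 mitosis genes that passed the test (85.7%), against 41.1% of all 27025 genes in the promoter table. TTTGAA stood in 3 of the 7, namely Cdc20, Cdk1 and Prc1 (42.9%), against 20.2% of all genes. AGATAA stood in 2 of the 3 red cell precursor genes that passed, Rhd 43 bases and Kel 56 bases before the start, against 12.7% of all genes. CCAAT also stood in 2 of these 3, Rhd and Ermap (66.7%), and none of the 7 mitosis genes held AGATAA in its window. Such matches describe letters in a window and no binding was measured.

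Among the genes higher at day 5 than at day 1 were 7 of mitosis, 2 of deoxynucleotide supply and 3 of red cell precursors, and among the 12 named genes that were lower were the cytokine Il1b and the B cell receptor Cd22. At an adjusted p under 0.05 (limma with Benjamini-Hochberg adjustment over all probes), 67 of 8811 probes (0.760%) differed. Of these, 45 probes (0.511%) were higher at day 5 and 22 (0.250%) were lower. In 42 of the 45 every mouse at day 5 lay above every mouse at day 1, and in 19 of the 22 every mouse at day 5 lay below. Over all probes tested the groups parted upward in 2.55%, downward in 2.37% and either way in 4.93%. The called differences were at least 0.57 in size, with a median size of 1.06, and the median over all probes was -0.0086. They fell on 51 named genes, 39 higher and 12 lower, and on 16 probes without a single gene. The calls leaned on single mice: there were 30 without day 1 mouse 2, 36 when day 5 mouse 1 was left out and 43 when day 5 mouse 5 was, and over the 9 fits 6 to 31 calls were lower. Of the calls, 67.2% were higher with values as deposited, 79.7% after quantile normalization and 78.1% with the arrays brought to equal spread.

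**Figure D1:**
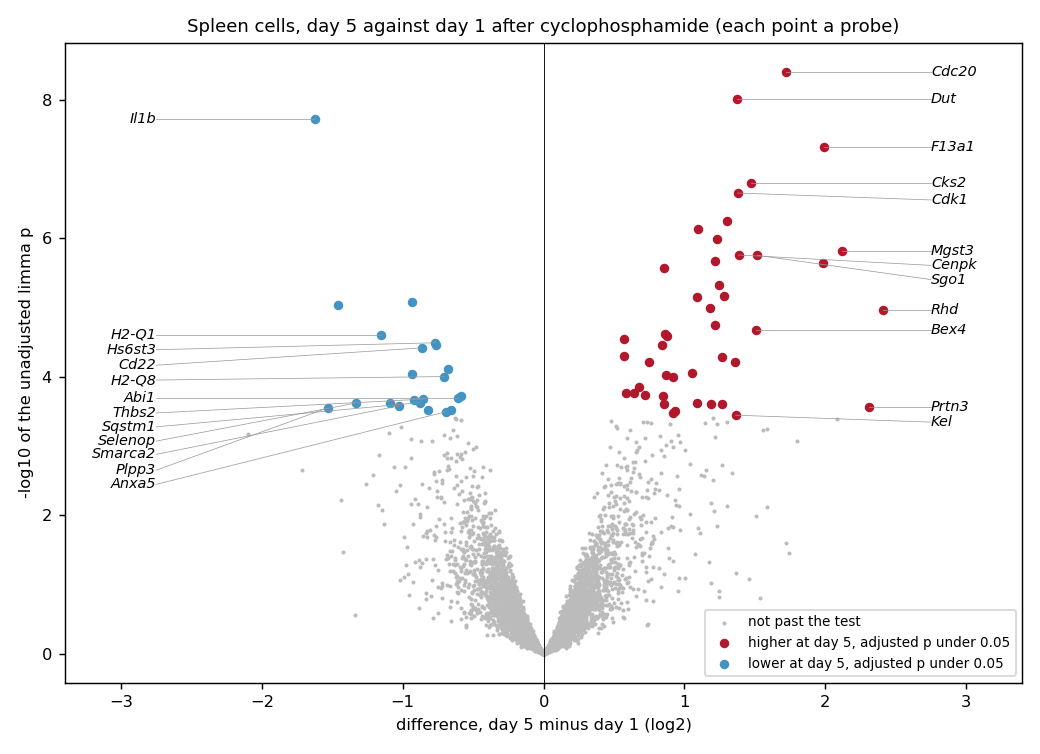
Difference between day 5 and day 1 (x axis, log2) against the size of the unadjusted limma p (y axis, -log10) for all 8811 probes. Red points are the 45 probes higher and blue points the 22 probes lower at day 5, and the 12 named genes with the largest difference in each direction carry their symbols.

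The mitosis list gave the most calls of the 41 lists. Of 30 measured members of the list, 7 rose (Cdc20, Cks2, Cdk1, Cenpk, Sgo1, Prc1 and Nuf2) and none fell. Differences were above 0 for 28 of the 30, with a list median of 0.58 against -0.0086 over all probes. Per mouse, the median over members, centred per gene, ran from 0.21 to 0.67 at day 5 and from -0.61 to -0.23 at day 1. The groups did not overlap. In these bulk samples, fewer cells of a type and less RNA per cell cannot be told apart. The count of mitosis genes that rose stayed at 7 or 8 whichever mouse was left out, and at 7 to 10 under the 14 other settings.

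Cdc20, which switches on the anaphase-promoting complex, had log2 ratios of -0.16, -0.64, -0.13, -0.44 and -0.61 in the 5 mice at day 5, against -1.84, -2.68, -1.94 and -2.02 in the 4 mice at day 1. Even the lowest mouse at day 5 was more than 1 unit above the highest at day 1. The rise was 3.30-fold (95% interval 2.56 to 4.27, adjusted p = 3.49e-05 by limma), the smallest p of all probes. Cdk1, the cyclin-dependent kinase of mitotic entry, had -0.32, -0.88, 0.04, -0.49 and -0.55 at day 5, against -1.90, -1.73, -2.10 and -1.53 at day 1. It was 2.60-fold higher (2.00 to 3.38, adjusted p = 0.000328 by limma). Cks2, a small subunit that binds Cdk1, had -0.07, -0.55, 0.02, -0.49 and -0.32 at day 5, against -1.30, -2.27, -2.04 and -1.40 at day 1. This made a 2.78-fold rise (adjusted p = 0.000285 by limma), again with no overlap between the days.

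Parts of the kinetochore and the spindle rose alongside. Sgo1, which guards the cohesion of sister chromatids at the centromere, was -0.03, -1.04, -0.32, -0.83 and -0.43 at day 5, against -2.13, -2.27, -1.86 and -1.93 at day 1, a 2.86-fold rise. Cenpk, a protein of the inner kinetochore, was 0.04, -0.31, -0.44, -0.56 and 0.03 at day 5, against -1.12, -1.77, -1.99 and -1.64 at day 1, a 2.61-fold rise. Both had an adjusted p of 0.0013 by limma. Prc1, which bundles microtubules in the spindle midzone, rose 2.37-fold (adjusted p = 0.00265 by limma), and Nuf2, of the Ndc80 complex that holds microtubules, rose 2.27-fold (adjusted p = 0.00428 by limma). Not every proliferation gene did so: Mki67, the gene of the marker Ki-67, differed by 0.20 ± 0.16 (SE, adjusted p = 0.892 by limma), Plk1 by 0.32 ± 0.18 and Bub1 by 0.27 ± 0.26. Their sign was positive, and their size was below that of the 7 genes that passed. 

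**Figure D2:**
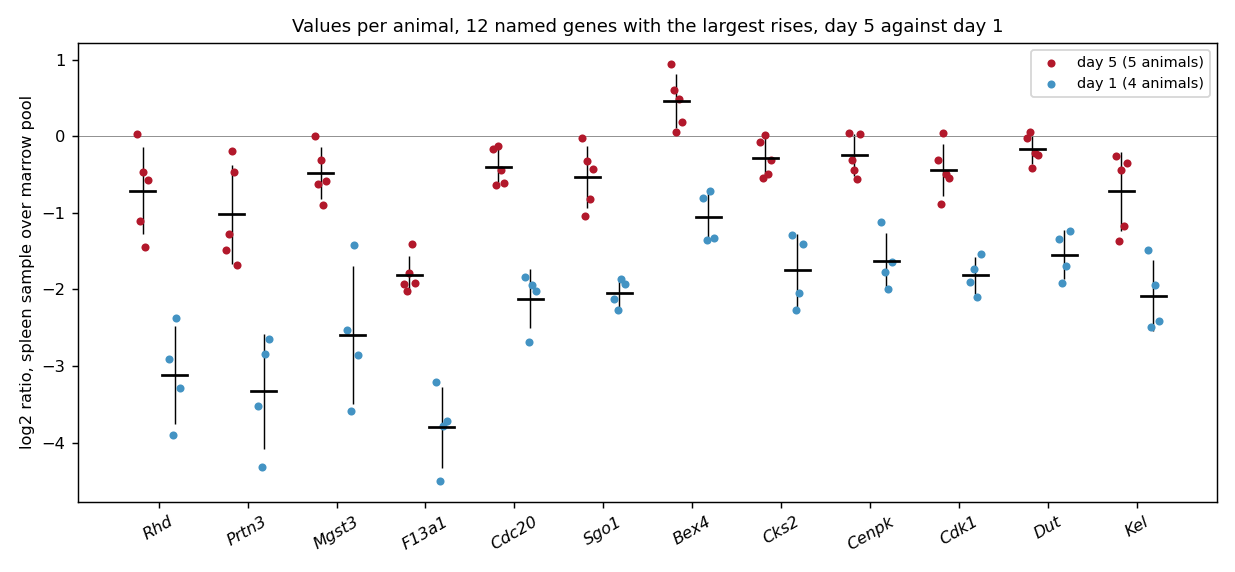
Log2 ratio of spleen over marrow pool (y axis) in each of 5 mice at day 5 (red) and 4 mice at day 1 (blue) for the 12 named genes with the largest rises. Horizontal bars are group means and vertical lines 1 SD, and for each of the 12 genes all mice at day 5 lie above all mice at day 1.

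Of 9 measured genes of the deoxynucleotide list, Dut and Tyms rose. Dut, which breaks down dUTP and so keeps uracil out of DNA, had -0.03, 0.06, -0.41, -0.22 and -0.25 at day 5, against -1.34, -1.91, -1.69 and -1.24 at day 1. Its rise of 2.59-fold (2.09 to 3.21) had the second smallest p of all (adjusted p = 4.25e-05 by limma). Tyms, thymidylate synthase, had -0.31, -0.12, -0.69, -0.15 and -0.49 at day 5, against -1.32, -1.85, -1.80 and -1.56 at day 1, a 2.43-fold rise (adjusted p = 0.00343 by limma). None of the 9 fell, and neither call was lost when any mouse was left out. Rrm2, the inducible subunit of ribonucleotide reductase, stood 1.15 higher without passing (SE 0.33, adjusted p = 0.13 by limma), although its 5 mice at day 5 (-0.98 to 0.07) did not overlap the 4 at day 1 (-1.93 to -1.46). Tk1, thymidine kinase, differed by 0.40 ± 0.29 (adjusted p = 0.872 by limma).

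Of 22 measured DNA replication genes, 18 had a difference above 0 and the median was 0.41, yet none passed. The nearest were Rfc4 (1.20 ± 0.28 SE, adjusted p = 0.0506 by limma) and Rfc5 (0.92 ± 0.24), subunits of the clamp loader, and Pcna, the sliding clamp itself (0.97 ± 0.25, adjusted p = 0.075 by limma). Rfc4 had mice at day 5 between -0.54 and 0.24 and mice at day 1 between -1.75 and -0.76, with no overlap. With day 1 mouse 1 left out 2 members of the list passed, and with day 5 mouse 2 left out 1 did.

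In the histone list 2 genes rose. The list had 11 measured members and a median of 0.59, with 6 differences above 0 and 5 below. Those below included the histones H1f2 (-0.16), H3c1 (-0.14), H1f1 (-0.09) and H2bc4 (-0.07). Hmgn1 (-0.19), Hmgn2 (0.59), Slbp (0.64) and Anp32b (0.87) are not histones, so the median is not that of histone genes alone. H2az1, the variant H2A.Z, rose 1.68-fold (adjusted p = 0.0152 by limma) and Anp32b, an acidic histone-binding protein, rose 1.83-fold (adjusted p = 0.0206 by limma). H2az1 ran from -0.40 to 0.15 at day 5 and from -1.16 to -0.65 at day 1. Anp32b ran from -0.77 to 0.03 at day 5 and from -1.57 to -0.70 at day 1, so 1 mouse of each day overlapped. Neither histone list gene passed once day 1 mouse 1 or 2 was left out, and 1 gene did without day 5 mouse 1, day 5 mouse 5 or day 1 mouse 3. With arrays of equal spread none passed, and the list median was 0.15 after quantile normalization.

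Further genes outside the lists rose and were chosen after their values were seen, so they stand for no theme. Hmgb3, a chromatin protein of blood progenitors, had 0.31, -0.41, -0.16, -0.25 and -0.28 at day 5, against -1.03, -1.74, -1.85 and -1.22 at day 1, a 2.46-fold rise (adjusted p = 0.000717 by limma). Esco2, which acetylates cohesin in S phase, differed by 1.22 and Asf1a and Asf1b, chaperones that hand over histones H3 and H4, by 0.86 and 0.93. Lmnb1, a protein of the nuclear lamina, differed by 1.09, the chromatin protein Dek by 1.19, Depdc1a by 1.27 and Mxd3, a partner of Max, by 0.92. Cdkn2c, an inhibitor of Cdk4 and Cdk6, differed by 0.68, Uck2, a uridine-cytidine kinase, by 0.72 and Syce2, known from the synaptonemal complex, by 0.85. A second probe of Uck2 differed by 0.39 and did not pass (adjusted p = 0.51 by limma). All of these passed an adjusted p of 0.05 by limma, and Hmgb3, Esco2, Asf1a and Lmnb1 did so in all 9 fits that each left out 1 mouse. Depdc1a passed in 7 of the 9, Mxd3 in 4, Dek and Syce2 in 3, Asf1b and Cdkn2c in 2 and Uck2 in 1. Among the 7 genes with lost calls, each lost its call without day 1 mouse 2, and adjusted p reached 0.17 (Asf1b).

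Red cell precursor genes showed the largest single rise. Of 24 measured members of the list, Rhd, Ermap and Kel rose, none fell, 22 had a difference above 0 and the median was 0.67. Per mouse, the list's centred median ran from 0.05 to 0.79 at day 5 and from -0.41 to 0.01 at day 1. The groups did not overlap, by a narrow margin.

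Rhd, which encodes a Rh blood group protein of the red cell membrane, had log2 ratios of 0.03, -1.10, -0.47, -1.44 and -0.57 at day 5, against -2.91, -3.90, -2.37 and -3.29 at day 1. It was 5.31-fold higher (2.91 to 9.70, adjusted p = 0.00431 by limma), and was called in all 9 fits that each left out 1 mouse. A second Rhd probe differed by 0.30 ± 0.35 (SE) and did not pass, so the 2 probes disagreed. Kel, the protease that carries the Kell blood group, had -0.26, -1.37, -0.44, -1.18 and -0.35 at day 5, against -1.49, -2.49, -1.94 and -2.41 at day 1. Its 2.57-fold rise had an adjusted p of 0.0474 by limma and was called in 3 of the 9 fits, lost without any one of day 5 mice 1, 3 and 5 or day 1 mice 2, 3 and 4, with adjusted p between 0.0875 and 0.203. Ermap, an erythroid membrane protein that carries the Scianna blood group in humans, was 0.25, -0.25, 0.08, -0.48 and -0.20 at day 5, against -0.52, -2.35, -1.38 and -1.66 at day 1. Its rise was 2.56-fold (adjusted p = 0.0152 by limma), and it missed the threshold without day 5 mouse 1, day 1 mouse 2 or day 1 mouse 4 (adjusted p 0.0563, 0.0952 and 0.0633 by limma).

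Some other red cell genes stood higher without passing. Icam4, the LW blood group, differed by 1.59 ± 0.39 (SE, adjusted p = 0.059 by limma), with mice at day 5 between -0.32 and 0.32 and mice at day 1 between -2.24 and -0.52. Ank1, the ankyrin that ties the membrane to spectrin, differed by 1.56 ± 0.39 (adjusted p = 0.0605 by limma), and the erythroid factors Klf1 and Gata1 by 1.00 ± 0.54 and 0.52 ± 0.28. Hba-a1, alpha globin, stood apart from these at -0.18 ± 0.19, and Tfrc, the transferrin receptor, at 0.03 ± 0.27. Rhag and Xk of the same list differed by 0.09 ± 0.30 and 0.06 ± 0.17. The count of 3 was 1 without day 5 mouse 1, day 1 mouse 2 or day 1 mouse 4, and 5 without day 1 mouse 1.

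The list of heme synthesis and iron genes gave no call among 15 measured, with a median of 0.14. That median was 0.02 without day 5 mouse 1, 0.09 with mouse 3 of that day left out and 0.24 without day 5 mouse 4. Alas2, the erythroid enzyme of the first step, ran from -1.47 to 0.02 at day 5 and from -2.77 to -0.96 at day 1, a difference of 1.14 ± 0.34 (SE, adjusted p = 0.144 by limma). Ppox differed by 1.12 ± 0.33 and Fech, which inserts the iron, by 0.97 ± 0.37, neither past the test. Cpox, another enzyme of heme synthesis, differed by -0.11 ± 0.16. Tmem14c, which carries a heme precursor into mitochondria of red cell precursors and was chosen after its values were seen, did rise, by 0.86 ± 0.16 (adjusted p = 0.00831 by limma).

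Mgst3, a microsomal glutathione transferase, was the one of 21 glutathione and redox genes that passed. Its values were 0.004, -0.62, -0.31, -0.89 and -0.59 at day 5, against -2.53, -3.59, -1.42 and -2.85 at day 1. The mice at day 1 differed widely among themselves (SD 0.90 against 0.34 at day 5), yet all lay below those at day 5, and the rise was 4.34-fold (2.74 to 6.86, adjusted p = 0.0013 by limma). Of the 21 genes, 14 had a difference above 0 and 7 below. The peroxiredoxins Prdx1 and Prdx2 of this list differed by -0.56 ± 0.15 and 1.11 ± 0.43 (SE), neither past the test. Bex4, an X-linked gene of the brain-expressed family, had 0.95, 0.61, 0.05, 0.49 and 0.19 at day 5, against -0.81, -1.35, -0.72 and -1.33 at day 1. It was 2.85-fold higher (adjusted p = 0.00774 by limma) and was the one gene of the 12 largest rises with every mouse at day 5 above the marrow pool.

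Of the myeloid lists, F13a1 and Prtn3 rose. F13a1, the A chain of coagulation factor XIII, made by monocytes and platelets, had -1.94, -2.02, -1.79, -1.40 and -1.91 at day 5, against -3.21, -4.50, -3.78 and -3.72 at day 1. The 3.97-fold rise (2.81 to 5.60, adjusted p = 0.000108 by limma) was called whichever mouse was left out. It missed after quantile normalization (difference 1.05, adjusted p = 0.179 by limma) and with a variance trend (adjusted p = 0.308 by limma). Of 10 measured monocyte genes it was the only one to pass. Prtn3, proteinase 3 of the primary granules of promyelocytes, was -1.49, -1.27, -0.20, -0.47 and -1.68 at day 5, against -3.52, -4.32, -2.85 and -2.65 at day 1. It was 4.96-fold higher (2.32 to 10.6, adjusted p = 0.0396 by limma), a call that was lost without any one of the 9 mice (adjusted p 0.0519 to 0.199).

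No other early granule gene passed. Elane, neutrophil elastase, differed by -0.17 ± 0.19 (SE) and Ctsg, cathepsin G, by 0.43 ± 0.50, and 4 of the 8 measured early granule genes were above 0. Of 15 neutrophil genes 13 had a difference above 0 and none passed, with a median of 0.25 that was -0.004 after quantile normalization, 0.64 without day 5 mouse 1 and 0.53 with day 1 mouse 4 left out. With day 5 mouse 2 or day 1 mouse 4 left out, 1 neutrophil gene passed. Cd177, a neutrophil surface protein, came nearest at 1.30 ± 0.31 (adjusted p = 0.052 by limma), with day 5 mouse 4 at -1.38, the other mice at day 5 between -3.24 and -2.90, and mice at day 1 between -4.38 and -3.79. Hp, haptoglobin, differed by 1.80 ± 0.46 (adjusted p = 0.074 by limma), with mice at day 5 between -2.76 and -0.33 and mice at day 1 between -3.95 and -2.92.

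**Figure D3:**
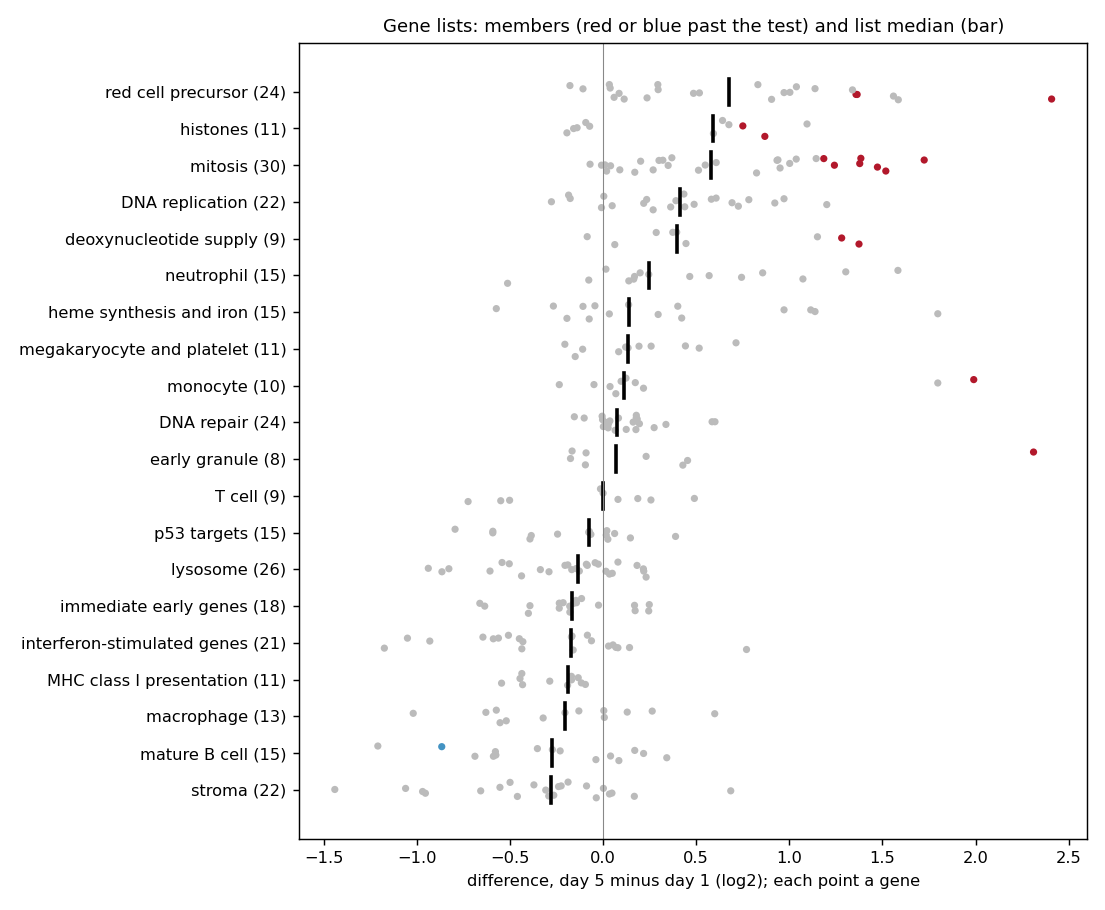
Difference between day 5 and day 1 (x axis, log2) of each measured gene in 20 of the 41 lists, with the number measured beside each name. Grey points did not pass the test, red points rose, blue points fell and the black bar is the list median, which runs from -0.28 for stroma to 0.67 for red cell precursors.

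Among the genes that fell, Il1b gave the clearest separation. Il1b, the inflammatory cytokine interleukin 1 beta, had -0.67, -0.72, -0.53, -0.68 and -0.58 in mice at day 5, against 0.84, 1.16, 0.49 and 1.45 in mice at day 1. The mice at day 5 lay within a narrow band (SD 0.08, against 0.41 at day 1), and below the marrow pool, while every mouse at day 1 lay above it. The fall was 3.08-fold (2.36 to 4.01, adjusted p = 5.57e-05 by limma) and was called in every fit that left out a mouse and under all 14 other settings. A second Il1b probe differed by 0.10 ± 0.16 (SE, adjusted p = 0.989 by limma) and so disagreed with the first. Of 38 measured cytokine and chemokine genes Il1b was the only one to pass, and the list median was -0.02.

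One B cell gene fell. Cd22, a receptor that dampens signalling from the B cell antigen receptor, was 1.19, 1.06, 0.77, 0.78 and 0.95 at day 5, against 1.64, 1.88, 2.08 and 1.67 at day 1. It fell 1.82-fold (1.43 to 2.32, adjusted p = 0.0106 by limma) and was the 1 of 15 measured mature B cell genes to pass. Fcmr, the receptor for IgM, differed by -1.21 ± 0.35 (SE), Ms4a1, which encodes CD20, by -0.69 ± 0.19 and Cd37 by -0.58 ± 0.16, none past the test. Of the 15 genes, 10 had a difference below 0 and 5 above, among the latter Cd83 at 0.34 ± 0.24 and Blk at 0.22 ± 0.15. The list median of -0.27 was -0.15 with day 5 mouse 3 left out and -0.41 with day 1 mouse 1 left out. Ms4a1 ran from 0.83 to 1.43 at day 5 and from 1.57 to 2.15 at day 1, with no overlap. The list's centred median per mouse ran from -0.34 to -0.05 at day 5 and from 0.05 to 0.23 at day 1. The Cd22 call was lost without day 1 mouse 2 (adjusted p = 0.0563 by limma) or mouse 3 (0.0511), after quantile normalization (difference -0.59, adjusted p = 0.441 by limma) and with equal spread (-0.75, adjusted p = 0.397 by limma).

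No T cell gene passed: the median of 9 measured genes was 0.0004, 5 were above 0 and 4 below. Their mean log2 ratio was 0.252 ± 0.0905 at day 5 and 0.325 ± 0.0781 at day 1 (SD, n = 5 and 4 mice), against 0.206 ± 0.0713 at day 5 and 0.517 ± 0.0829 at day 1 for mature B cell genes. Cd8b1, a chain of the CD8 co-receptor, differed by -0.55 ± 0.28 (SE) and the regulatory T cell gene Izumo1r by 0.63 ± 0.18, neither past the test. The 7 measured plasma cell genes had a median of -0.12, which ran from -0.22 to 0.01 over the 9 fits that each left out 1 mouse, led by Mzb1 at -0.84 ± 0.33, and none passed.

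**Figure D4:**
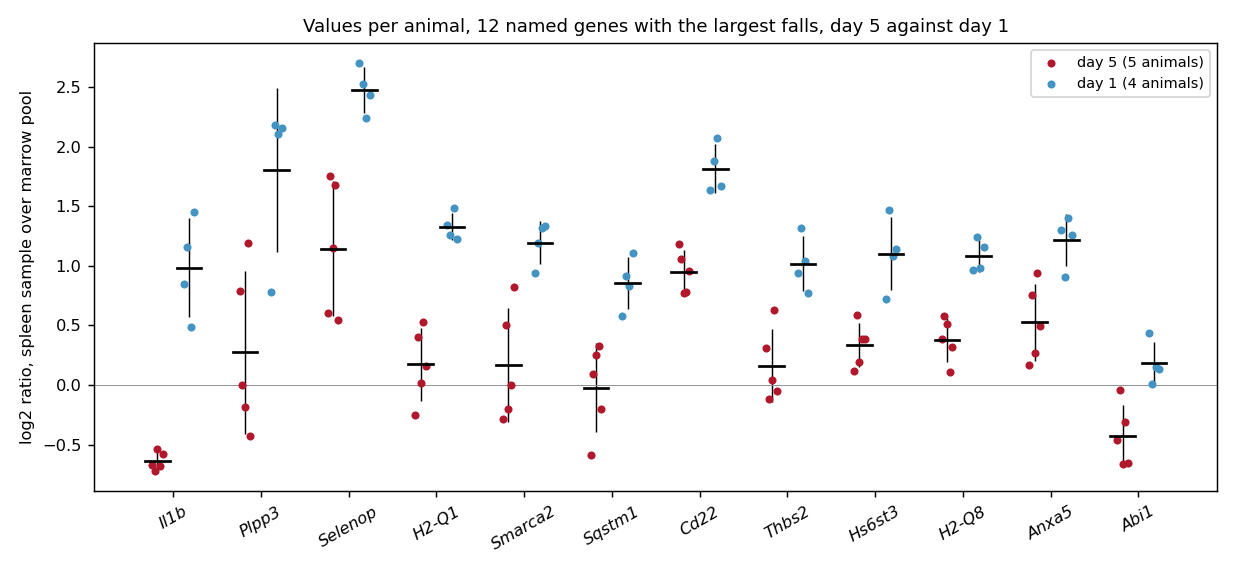
Log2 ratio of spleen over marrow pool (y axis) in each of 5 mice at day 5 (red) and 4 mice at day 1 (blue) for the 12 named genes with the largest falls. Bars are means and vertical lines 1 SD; the mice of the 2 days overlap for Plpp3 and Anxa5 and for none of the other 10 genes.

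Probes of 2 class I genes outside the presentation list fell. The probe of H2-Q1, a non-classical class I gene of the Q region, had -0.25, 0.40, 0.02, 0.53 and 0.16 at day 5, against 1.34, 1.26, 1.48 and 1.22 at day 1. The fall was 2.23-fold (1.64 to 3.03, adjusted p = 0.00831 by limma). The probe of H2-Q8, of the same region, ran from 0.11 to 0.58 at day 5 and from 0.96 to 1.24 at day 1, a difference of -0.71 ± 0.15 (SE, adjusted p = 0.021 by limma). Genes of this region are close copies of each other, so which of them each probe measured is uncertain. Measured members of the class I list included H2-D1, the non-classical H2-T23 and genes of the peptide loading chain. All 11 measured genes of this list had a difference below 0, with a median of -0.19. That median ran from -0.33 (without day 1 mouse 2) to -0.15 (without day 5 mouse 5), and none of the genes passed. The nearest were Pdia3, of the loading complex, at -0.43 ± 0.12 (adjusted p = 0.124 by limma) and Psme1, of the proteasome activator, at -0.45 ± 0.16.

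Of 21 interferon-stimulated genes 15 lay below 0, with a median of -0.17 and no call. With day 5 mouse 2 left out 2 members fell, with day 5 mouse 3 or day 1 mouse 1 left out 1 did, and the median was -0.32 without day 5 mouse 1, -0.29 once day 1 mouse 1 was left out and -0.26 once day 1 mouse 3 was. With the animal as a random effect 4 members fell. Mx2, an antiviral GTPase, had 0.24, 0.32, 0.51, 0.19 and 0.22 at day 5, against 0.59, 1.07, 1.06 and 0.81 at day 1. The days did not overlap, and the difference of -0.59 ± 0.14 (SE) had an adjusted p of 0.052 by limma. Rtp4 differed by -0.65 ± 0.16 (adjusted p = 0.0602 by limma), the GTPase Gbp2 by -1.05 ± 0.33 and the chemokine Cxcl10 by -0.93 ± 0.34.

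The remaining falls came from genes of varied function. Selenop, a secreted selenoprotein that carries selenium, was 0.61, 1.75, 1.15, 1.67 and 0.55 at day 5, against 2.70, 2.53, 2.24 and 2.43 at day 1. The mice at day 5 were scattered (SD 0.57 against 0.19 at day 1), all below those at day 1, and the fall was 2.51-fold (1.63 to 3.87, adjusted p = 0.0376 by limma). Plpp3, a phosphatase that breaks down lysophosphatidic acid, had a log2 difference of -1.53 (limma adjusted p = 0.0408), with overlap, since day 1 mouse 1 was at 0.78 and the other 3 mice at day 1 between 2.10 and 2.18. Thbs2, a matrix glycoprotein, fell by 0.85, and Hs6st3, which adds sulfate to heparan chains, by 0.77. Sqstm1, the autophagy adaptor p62, fell by 0.88, Anxa5, which binds exposed phosphatidylserine, by 0.69, Smarca2, an ATPase of the SWI/SNF remodeller, by 1.03 and Abi1, of the actin-regulating WAVE complex, by 0.61, all with adjusted p under 0.05 by limma.

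The calls of falls differed in how far they rested on single mice. Of the 12 named genes, Il1b and H2-Q1 were called in all 9 fits that each left out 1 mouse, Hs6st3 in 8, lost without day 1 mouse 2 (adjusted p = 0.0716 by limma), and Cd22 in 7. The other 8 were called in 2 to 4 of the 9, and leaving out any one of the 9 mice ended at least 1 of these calls, with adjusted p up to 0.176. The lists around them gave no call: stroma had 17 of 22 genes below 0 and a median of -0.28, macrophage 8 of 13 and -0.20, lysosome 18 of 26 and -0.14. The macrophage median was -0.42 without day 5 mouse 1, -0.09 with mouse 3 of that day left out and -0.05 with its mouse 5 left out, and the lysosome median -0.08 without day 1 mouse 4. With day 5 mouse 4 left out, 1 lysosome gene fell. Named by their p within these lists, the collagen Col14a1 differed by -1.06 ± 0.30 (SE), the chemokine Cxcl12 by -1.44 ± 0.47, the phosphatase Acp5 by -0.94 ± 0.26, the protease Ctsc by -0.83 ± 0.33, and Siglec1, a receptor of marginal metallophilic macrophages, by -0.52 ± 0.17. Of the 5 stroma genes above 0, the collagen Col5a1 differed most, by 0.69 ± 0.20.

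Damage and early response genes gave no call. Of 15 measured p53 targets none passed, and the median was -0.07 (-0.13 to -0.03 with 1 mouse left out). Cdkn1a, the cell cycle inhibitor p21, ran from 0.17 to 0.54 at day 5 and from 0.39 to 1.52 at day 1, a difference of -0.59 ± 0.24 (SE, adjusted p = 0.455 by limma), and Trp53inp1 differed by -0.59 ± 0.16 (adjusted p = 0.101 by limma). Of 18 immediate early genes 14 lay below 0, with a median of -0.17. Dusp2, a phosphatase of activated kinases, differed by -0.66 ± 0.17 (adjusted p = 0.0703 by limma), and Nfkbia, the inhibitor of NF-kappa B, by -0.64 ± 0.20. Hspa1a, the inducible heat shock protein, differed by -1.02 ± 0.31 without passing. The lists of 31 ribosomal protein genes (median -0.06, above 0 without day 5 mouse 1 or 3) and 31 genes of oxidative phosphorylation (median 0.12) held no call.

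For orientation, in 60 of the 67 called probes the mean at day 5 lay within 0.5 of the untreated mean. The share over all probes was not counted, so this closeness cannot be read as particular to the called probes. The named genes outside that range were F13a1 and Prtn3, with day 5 above untreated by 1.25 and 0.56, and Plpp3, Mgst3 and Cd22, with day 5 below untreated by 0.84, 0.59 and 0.52. Of these, F13a1 passed a test of day 5 against untreated (adjusted p = 0.0342 by limma), in which 7 of 8786 probes did. These contrasts share the mice at day 5 with the main one and are given as values. The list median of day 5 minus untreated was -0.12 for mitosis and -0.06 for red cell precursors, and that of day 1 minus untreated was -0.74 and -0.93.

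**Figure D5:**
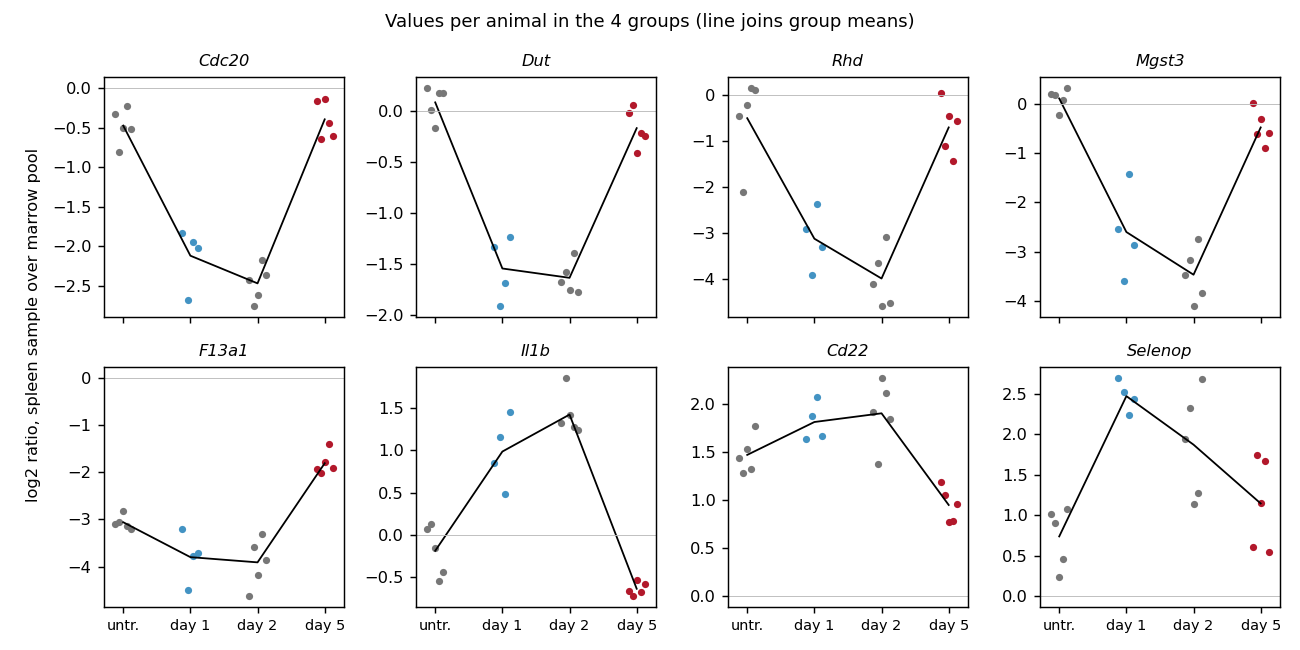
Log2 ratio of spleen over marrow pool (y axis) of each mouse in the untreated, day 1, day 2 and day 5 groups (x axis) for 8 genes, with a line through the group means. Cdc20, Dut, Rhd and Mgst3 have their lowest means at days 1 and 2, F13a1 is highest at day 5, and Il1b, Cd22 and Selenop are higher at days 1 and 2 than at day 5.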

How the data were processed

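RNA of spleen cells was compared on 2-colour arrays between 5 mice at day 5 and 4 mice at day 1 after cyclophosphamide, with 2 technical arrays per mouse. Per the labels' protocols, total RNA (Qiagen RNeasy Midi) was amplified by the Ambion Amino Allyl MessageAmp II method, spleen RNA carried Cy5 and the marrow pool Cy3, and no dye was swapped. The deposited values are log2 ratios; base 2 is an assumption, and background correction, normalization and software are steps not given in the sources used here. The direction, spleen over marrow, rests on the marker lists described with the results. Array medians lie between -0.0212 and 0.0132, and 63.2% of values are present. The number of mice limits the precision. Values per mouse numbered 7663 to 10936 at day 5 and 8698 to 10087 at day 1, and technical arrays of 1 mouse correlated at 0.673 to 0.916 at day 5 and 0.830 to 0.913 at day 1. The labels call the mice separate biological replicates.

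Technical arrays were averaged, and probes that 3 or more mice of both groups measured went into limma (version 3.58.1, R 4.3.3; lmFit, eBayes) as group means, with 1 spread for all 4 groups (5.58 prior degrees of freedom, median SE of the difference 0.183). Tests were two-sided, adjusted after Benjamini-Hochberg over 8811 probes, with a threshold of 0.05. The scripts were tested on simulated data. Of 13443 probes, 10032 pair with 1 gene in the platform annotation, 170 with several and 3241 with none. Symbols were updated through a RefSeq gene table, 10028 by gene identifier, and probes without a single gene were tested and not named. Folds are 2 to the power of the log2 difference, with 95% intervals from the fit.

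The 41 gene lists and the comparison itself were chosen with earlier results of these data known. Named genes are the 12 largest called differences in each direction whose mice all lay on their own side of the other day's mean, up to 4 members per list by smallest p with those that passed, list members given for contrast, and others said to be chosen after their values were seen. Alternatives changed the scaling, the technical arrays, the filter, the spread and the mice, 1 at a time, except that the fit with a block also left out the other 2 groups.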

Additional observations from a re-analysis of the deposited data

Results flagged for a closer look

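Of 102 groups of mice examined among the called genes, 3 held a mouse far from the rest of its group, where chance alone gives about 1 in 20. Day 1 mouse 1 had a log2 ratio of 0.776 for Plpp3, and the other 3 mice at day 1 lay between 2.104 and 2.178. Day 1 mouse 2 had -1.325 for Cdkn2c, with the others between -1.182 and -1.155, a small gap in a tight group. The same mouse had -1.543 for C1qtnf12, a secreted protein of the C1q and TNF related family, with the others between -0.787 and -0.731. C1qtnf12 was 1.06 higher at day 5, and without day 1 mouse 2 the difference was 0.86 (adjusted p = 0.13 by limma).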

How the results depend on the processing

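No named gene changed direction under any alternative tried, list members given for contrast aside, which were not followed singly. Of the 51 genes called, 24 were called whichever mouse was left out (22 higher, 2 lower), and 16 of them under the 14 other settings too (15 higher, and Il1b lower). Leaving out 1 mouse in turn gave 30 to 76 calls, 24 to 46 higher and 6 to 31 lower. The fewest came without day 1 mouse 2, and there were 36 without day 5 mouse 1 (28 higher, 8 lower) and 43 without day 5 mouse 5 (11 lower), with 12 lower without day 1 mouse 3 and 10 lower without day 1 mouse 4. Equal spread between arrays gave 32 calls, 25 higher and 7 lower, and quantile normalization gave 12 lower. Technical column 2 alone gave 13 lower, and leaving out the mice with technical correlation under 0.7, among them day 5 mouse 5, gave 14 lower. Keeping both columns with the animal as a random effect gave 142 calls (86 higher, 56 lower), and array weights gave 136 (80 higher, 56 lower). An adjusted p of 0.01 left 29 calls (24 higher, 5 lower). With the mouse number as a replicate block in the 2 groups alone there were 77 calls (55 higher, 22 lower). The deviations of same-numbered mice correlated at -0.056, 0.100, 0.263 and 0.172 over 6486 probes, and 2 of the 4 numbered mice at day 5 resembled their own number most. These values cannot settle whether mice of the same number share an effect. The main fit did not take the numbers as pairs. With values in all 9 mice required, the list median was 0.93 for mitosis, 0.40 for heme synthesis and iron and -0.43 for interferon-stimulated genes.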

Other observations

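Several called genes stand outside the groups described. Pla2g12a, a secreted phospholipase, was 1.10 ± 0.16 higher at day 5 (SE, adjusted p = 0.000824 by limma), from -0.03 to 0.42 at day 5 against -1.31 to -0.55 at day 1. Exosc8, of the RNA exosome, was 0.58 higher, Sec61g, of the channel into the endoplasmic reticulum, 0.85 higher, and Minpp1, an inositol phosphate phosphatase, 1.09 higher, all past the threshold. Exosc8 and Sec61g passed in 2 and Minpp1 in 3 of the 9 fits that each left out 1 mouse, with adjusted p up to 0.161, 0.176 and 0.185 by limma, each without day 1 mouse 2. Fam241a, Ubl4b, Wdr31 and the zinc transporter Slc39a11 were also higher, by 1.22, 0.87, 0.84 and 0.57, and a second Slc39a11 probe differed by 0.28 and did not pass. Wdr31 missed the threshold without day 1 mouse 2 (adjusted p = 0.0774 by limma). All were named after their values were seen.

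Platelet genes had a list median of 0.13 between day 5 and day 1, with no call among 11 measured, and that median ran from 0.07 to 0.29 with 1 mouse left out. Of the 11, 8 had a difference above 0 and 3 (Thbs1, Plek and Fli1) below. Pf4, platelet factor 4, ran from -0.06 to 2.26 at day 5 and from 0.36 to 1.54 at day 1, a difference of 0.71 ± 0.45 (SE, adjusted p = 0.786 by limma). Itga2b, the platelet integrin chain alpha IIb, ran from 0.87 to 1.36 at day 5 and from 0.18 to 1.18 at day 1, a difference of 0.52 ± 0.21 (adjusted p = 0.458 by limma). Idi1, of cholesterol synthesis, differed by 0.63 ± 0.23 without passing. The centred median of the 9 measured cholesterol genes ran from 0.02 to 0.10 at day 5 and from -0.16 to -0.08 at day 1. Brca1, of the 24 measured DNA repair genes, differed by 0.59 ± 0.22 (adjusted p = 0.348 by limma), and that list held no call.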
